A study of Rattus norvegicus with 127 samples.

Results

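Myd88, Ikbkb, Nfkbia, Nfkb1 and Junb are 5 of the genes on a custom hybridisation panel, for which the authors' deposited table names 136 genes and all but 2 (Ppard and Pparg) had measured values, in the pubocaudalis, a pelvic floor muscle, of Sprague Dawley rats. They are the panel's members of Toll-like receptor and NF-kappaB signalling under a rule that uses gene names and no measured value. The panel was read on total RNA from 127 samples in 18 groups. Uninjured muscle (3 samples) was set beside muscle after simulated birth injury (SBI) with no injection, taken 1 day (3 samples), 3 days (9), 7 days (8), 10 days (3), 31 days (6), 35 days (6) and 84 days (6) later. In the remaining groups the muscle was injected with saline or with SKM, a gel derived from skeletal muscle extracellular matrix. Immediate injection was followed for 3 days (9 saline, 9 SKM) and 7 days (9 and 8), and delayed injection for 3 days (9 and 9), 7 days (10 and 9) and 8 weeks (5 and 6). The treatment protocol names the injury together with the injections, and the length of the delay is not given in the sources used here. Whether replicates of 1 group are different rats is not labelled, and p-values therefore reflect only sample-to-sample spread, which may be technical. In 3 pairs of samples, 1 at day 3 and 2 at day 7 after injury alone, the counts of every panel gene were identical. Each pair was averaged and counted as 1 sample, which left 8 and 6 samples in these groups and 124 in all.

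Toll-like receptors and the interleukin-1 receptor sense microbial products, released cell contents and cytokines, and pass the signal through the adaptor protein Myd88. Downstream, the kinase Ikbkb (IKK-beta) marks the inhibitor Nfkbia (I-kappaB-alpha) for breakdown, which frees NF-kappaB dimers such as those that contain the Nfkb1 product p50 to enter the nucleus, where Nfkbia is itself a known target gene. Junb is a subunit of AP-1, a transcription factor that is induced beside NF-kappaB by the same receptors. In injured skeletal muscle the pathway is known both in infiltrating immune cells and in the fibres themselves.

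Stretches of 300 bases around the annotated starts of 4 of the 5 genes were available from RefSeq (rat build GRCr8, 250 bases before to 50 after each start site), and are shown because the pathway is known to act on some of its own genes. Ikbkb (chr16:76021968-76075717) is named only. Capitals mark exact matches, on either strand, to the NF-kappaB sequence searched as a 10-base consensus, to the 7-base AP-1 sequence TGANTCA, to the CRE sequence TGACGTCA or to TATAAA. The Myd88 stretch is chr8:127956181-127956480 on the minus strand, that of Nfkb1 chr2:226805413-226805712 on the minus strand, that of Nfkbia chr6:78597023-78597322 on the minus strand and that of Junb chr19:40080876-40081175 on the plus strand.
Myd88: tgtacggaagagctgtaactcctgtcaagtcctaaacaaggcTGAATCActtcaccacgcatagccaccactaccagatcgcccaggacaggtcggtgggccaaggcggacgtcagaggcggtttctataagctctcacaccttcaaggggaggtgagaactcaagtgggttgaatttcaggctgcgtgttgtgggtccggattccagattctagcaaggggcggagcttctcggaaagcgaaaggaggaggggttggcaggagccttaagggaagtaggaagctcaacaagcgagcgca
Nfkb1: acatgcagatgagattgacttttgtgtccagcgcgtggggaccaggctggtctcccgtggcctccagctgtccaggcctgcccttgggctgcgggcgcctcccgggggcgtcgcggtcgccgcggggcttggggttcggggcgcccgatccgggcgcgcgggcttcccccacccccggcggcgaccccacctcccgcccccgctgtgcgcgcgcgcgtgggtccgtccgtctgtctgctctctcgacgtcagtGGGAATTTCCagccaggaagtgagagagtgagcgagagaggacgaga
Nfkbia: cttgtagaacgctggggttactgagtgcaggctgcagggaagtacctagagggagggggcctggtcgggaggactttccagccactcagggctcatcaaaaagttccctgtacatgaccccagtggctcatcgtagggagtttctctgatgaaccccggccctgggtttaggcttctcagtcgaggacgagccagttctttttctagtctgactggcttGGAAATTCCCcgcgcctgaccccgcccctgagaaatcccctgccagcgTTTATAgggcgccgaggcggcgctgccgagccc
Junb: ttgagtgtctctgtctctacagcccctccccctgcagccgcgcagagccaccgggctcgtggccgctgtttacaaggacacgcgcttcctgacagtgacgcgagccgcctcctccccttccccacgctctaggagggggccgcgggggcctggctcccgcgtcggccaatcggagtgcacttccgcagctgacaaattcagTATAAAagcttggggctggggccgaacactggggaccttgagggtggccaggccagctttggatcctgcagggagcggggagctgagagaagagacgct
Nfkb1 and Nfkbia each held 1 NF-kappaB match, GGGAATTTCC from base 4 to base 13 after the start of Nfkb1, and its reverse complement GGAAATTCCC from 31 to 22 bases before the start of Nfkbia. Myd88 held the AP-1 match TGAATCA from 208 to 202 bases before its start. Junb held TATAAA from 49 to 44 bases before its start, and Nfkbia held the same letters on the opposite strand from base 18 to base 23 after its start. The start site of the table lay 435 bases inside the annotated gene for Nfkb1 and 235 bases inside for Nfkbia. Of 33469 rat stretches of the same kind, 7.51% held the NF-kappaB match, 7.33% the AP-1 match, 1.83% the CRE match and 14.2% TATAAA. A match is a description of these letters and shows no binding.

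All 5 genes were well above the panel's floor in every sample. The counts behind the values ran from 78 to 3680 for Myd88 (median 435), from 378 to 5891 for Nfkb1 (1495), from 854 to 29644 for Nfkbia (3901), from 221 to 1730 for Ikbkb (993) and from 147 to 10192 for Junb (884), in samples whose total counts ran from 366294 to 1824478. Values below are the deposited normalised signal, in arbitrary linear units that may be compared between samples of 1 gene and not between genes. Differences are on the scale log2(value + 1), with the standard error (SE) of the fit. A difference was called where limma's Benjamini-Hochberg adjusted p, over all measured panel genes, was under 0.05. Each difference was also computed after each sample was centred on its own panel median, because the panel medians of whole groups differed: the mean panel median on the log2 scale was 10.2 in uninjured muscle, 11 at day 3 after immediate saline, and 8.46, 8.51 and 8.45 at day 84 and in the week 8 saline and SKM groups. Muscle fibre genes (9 on the panel, among them Acta1, Ttn and Des) made up 66.8% to 69.1% of the summed signal in uninjured muscle and none of them was at 0 in any sample.

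**Figure D1:**
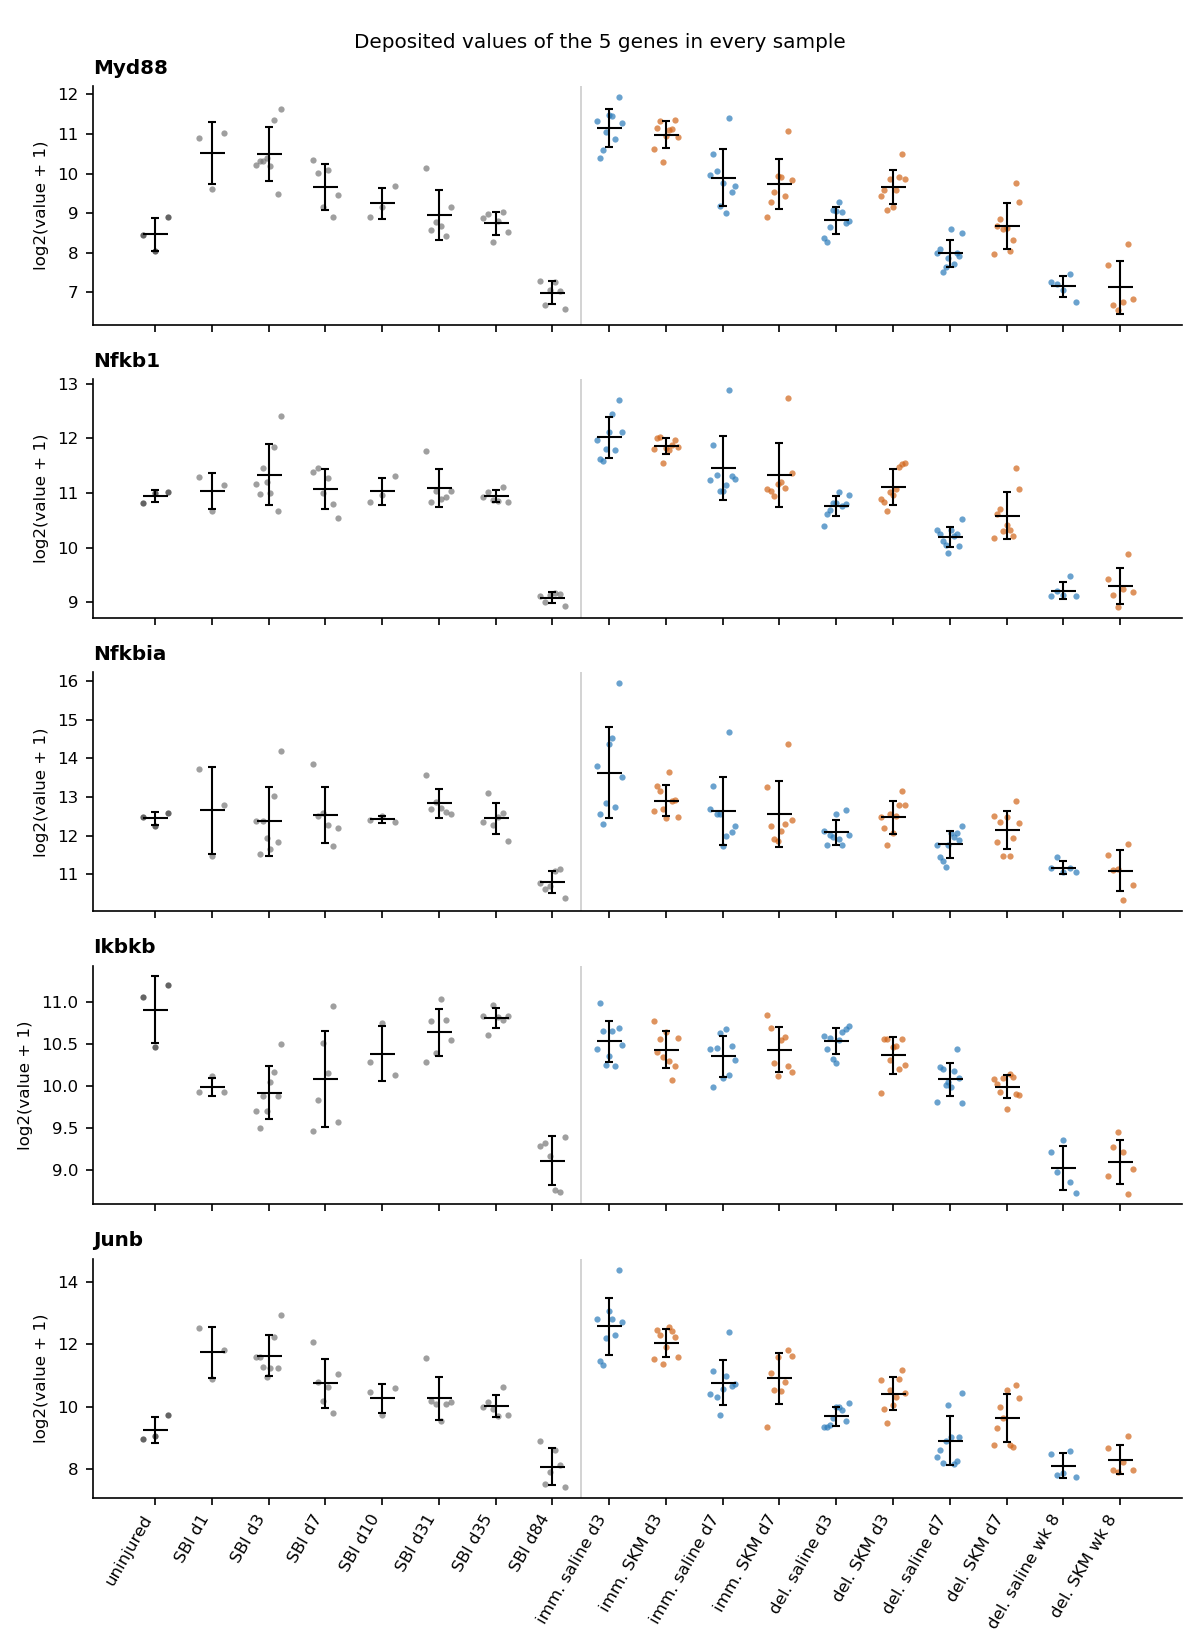
Deposited values of Myd88, Nfkb1, Nfkbia, Ikbkb and Junb, as log2(value + 1) on the vertical axis, in every sample of the 18 groups on the horizontal axis; points are samples (grey uninjured and injury alone, blue saline, orange SKM), bars the group mean and SD. Myd88 and Junb stand highest at days 1 and 3 after injury and 3 days after immediate injection, Ikbkb stands highest in uninjured muscle, and all 5 stand lowest at day 84 and week 8.

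The adaptor Myd88 and the AP-1 subunit Junb were both higher in the first week after injury. The Myd88 signal was 350.8, 264.2 and 475.2 in the 3 uninjured samples and 1921, 778.7 and 2072 in the 3 samples at day 1. At day 3 it ran from 719.2 over a median of 1268 to 3187 in 8 samples, and at day 7 from 478.9 over 864.4 to 1294 in 6. Every sample of these 3 days lay above every uninjured sample. The difference from uninjured muscle at day 1 was 2.04 ± 0.42 (SE, 3 against 3 samples, limma adjusted p = 1.6e-05), that of day 3 was 2.02 ± 0.35 (adjusted p = 3.4e-07) and that of day 7 was 1.19 ± 0.36 (adjusted p = 0.0050). Centred on the panel median these were 2.29, 1.92 and 1.22, all called (with 66.4%, 76.1% and 58.2% of the panel). The day 7 call was lost without uninjured replicate 2 (0.98, limma adjusted p = 0.059) and in a fit of the compared groups alone (limma adjusted p = 0.082).

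The Junb signal was 499.6, 540.5 and 854.7 in uninjured muscle and 5928, 1921 and 3605 at day 1. At day 3 it ran from 1992 over 2779 to 7937, and at day 7 from 889.4 over 1691 to 4298. As for Myd88, no sample of these days overlapped the uninjured range, although at day 7 the lowest sample lay just above it. The differences on days 1, 3 and 7 were 2.49 ± 0.53 (limma adjusted p = 3.2e-05), 2.38 ± 0.44 (adjusted p = 1.4e-06) and 1.496 ± 0.459 (adjusted p = 0.0051), and 2.74, 2.28 and 1.52 after centring, all called. In the fit of the compared groups alone the day 7 difference did not pass (limma adjusted p = 0.076). Both genes were also higher at these 3 days when samples were scaled to their total counts, by 3.35, 3.09 and 1.69 for Myd88 and 3.80, 3.40 and 2.00 for Junb. In muscle as a whole, more cells that express a gene and more RNA per cell cannot be told apart.

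Ikbkb, the kinase that acts on the inhibitor, differed in the other direction on the deposited scale. Its signal was 2138, 1410 and 2369 in uninjured muscle and 976.4, 1109 and 974 at day 1. At day 3 it ran from 726.4 over 943.1 to 1452, and at day 7 from 707.9 over 1027 to 1979. All day 1 samples lay below all uninjured ones, while on the other 2 days the ranges overlapped. The differences on days 1, 3 and 7 were -0.92 ± 0.22 (limma adjusted p = 0.00017), -0.99 ± 0.18 (adjusted p = 1.2e-06) and -0.83 ± 0.19 (adjusted p = 0.00027), and -0.67, -1.09 and -0.80 after centring, all called, whereas scaling to total counts gave 0.40 at day 1 (limma adjusted p = 0.033), 0.02 at day 3 and -0.34 at day 7 (limma adjusted p = 0.043). The lower level of Ikbkb at days 1 and 3 is therefore a statement relative to the panel's middle and to the deposited scale, and not to the total count. In the fit of the compared groups alone the day 7 difference did not pass (limma adjusted p = 0.14).

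Nfkbia and Nfkb1, the inhibitor and the NF-kappaB subunit, did not pass the test at any of these 3 days on the deposited scale. The Nfkbia signal was 5736, 4877 and 6189 in uninjured muscle and 13414, 2846 and 7052 at day 1, and ran from 2938 over 4604 to 18723 at day 3 and from 3378 over 5367 to 14878 at day 7. The uninjured samples lay inside the spread of the injured ones, which was wide: the SD at day 1 was 1.12 on the log2 scale against 0.18 in uninjured muscle. Its differences from uninjured muscle on these days were 0.21 ± 0.52 (95% interval -0.80 to 1.23), -0.08 ± 0.43 (-0.92 to 0.76) and 0.08 ± 0.45 (-0.80 to 0.96). The Nfkb1 signal was 1806, 2058 and 2072 in uninjured muscle and 2516, 1624 and 2269 at day 1. It ran from 1618 over 2317 to 5430 at day 3 and from 1480 over 2249 to 2812 at day 7, again with overlapping ranges. Its differences were 0.09 ± 0.30 (95% interval -0.49 to 0.67), 0.39 ± 0.25 (-0.09 to 0.87) and 0.12 ± 0.26 (-0.38 to 0.63). With samples scaled to total counts, 3 of these 6 differences passed: Nfkb1 at days 1 and 3 (1.41 and 1.43, limma adjusted p = 0.0063 and 0.00042) and Nfkbia at day 1 (1.49, limma adjusted p = 0.046). The share of the panel called on that scaling is not given here. Muscle fibre genes, which enter the total, held a median of 68.8% of the summed signal in uninjured muscle, 55% at day 1 and 31.1% at day 3.

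Of the 5 genes, 3 were thus called on each of days 1, 3 and 7, where 64.9%, 73.9% and 57.5% of the whole panel were called, so that the share of these genes was close to that of the panel. Myd88 ranked 21 in the panel by difference at day 1 and 30 at day 3, and Junb 18 and 23, while Nfkb1 and Nfkbia ranked 49 and 47 at day 1. The median difference of the 5 genes at day 1 was 0.21, against -0.66 for the panel. At day 10 none of the 5 was called (8.96% of the panel was); 1, Ikbkb, had an unadjusted p under 0.05, and limma with voom weights or after centring (3.73% of the panel) called none. Array weights called Ikbkb (-0.60, limma adjusted p = 0.0069). At days 31 and 35 none of the 5 and 0% of the panel were called; Junb alone had an unadjusted p under 0.05, at day 31, and limma with voom weights called none.

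**Figure D2:**
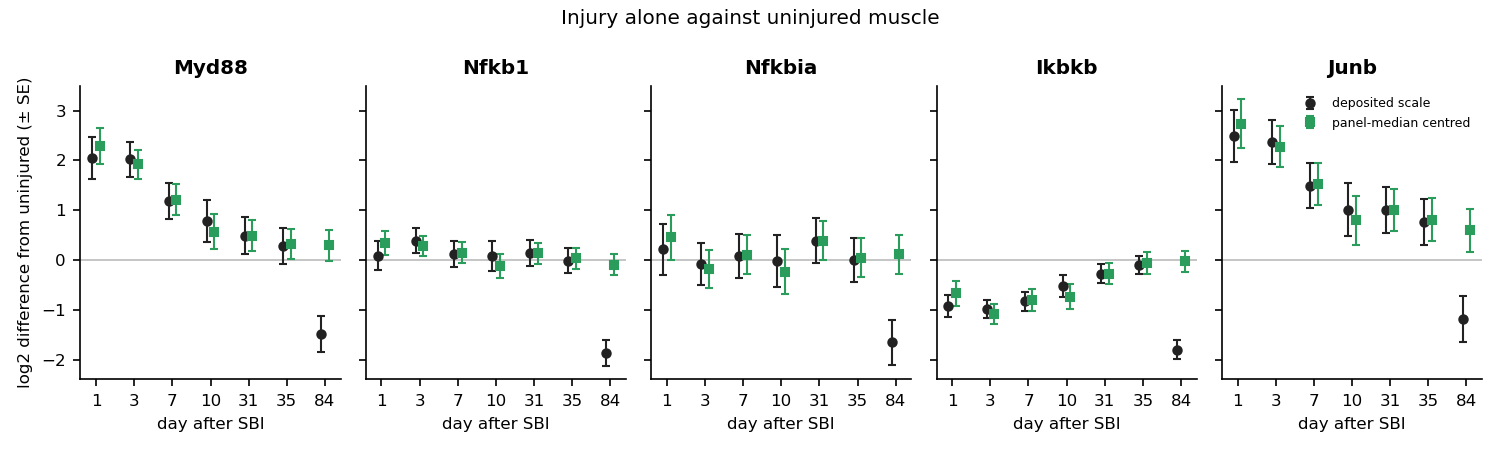
Difference from uninjured muscle on the log2 scale (vertical axis) at each day after injury alone (horizontal axis) for Myd88, Nfkb1, Nfkbia, Ikbkb and Junb; black circles are the deposited scale and green squares the panel-median centred scale, with bars of 1 SE. Both scales lie close together up to day 35 and part at day 84, where Myd88 is at -1.48 on the deposited and 0.29 on the centred scale.

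The fall from the early levels was measurable between days 3 and 7. Myd88 fell by 0.83 ± 0.28 (limma adjusted p = 0.015) and Junb fell by 0.88 ± 0.35 (adjusted p = 0.041), 2 of the 5 genes where 35.1% of the panel was called, and both were also called after centring (-0.71 and -0.76, with 45.5% of the panel). The ranges of days 3 and 7 overlapped for both, and neither difference was called with array weights or in a fit of the compared groups alone (limma adjusted p = 0.11 and 0.12). The Myd88 call was lost without day 3 replicate 9, day 7 replicate 3 or day 7 replicate 5 (limma adjusted p = 0.054 to 0.078), and the Junb call without any of 3 samples of day 3 (replicates 2, 6 and 9) or 3 of day 7 (replicates 3, 4 and 5; limma adjusted p = 0.051 to 0.17). Between days 1 and 3 none of the 5 genes was called, with no unadjusted p under 0.05, where 35.1% of the panel was; voom weights on the deposited scaling also called none, total-count scaling called 1 and array weights called 1 (Nfkbia, -0.86, limma adjusted p = 0.017).

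From day 10 to day 35 no difference from uninjured muscle passed the test, although Junb stood 1.011 ± 0.530 above it at day 10 and 1.008 ± 0.459 at day 31. The Myd88 signal was 480.9, 569 and 819.6 at day 10, still all above the uninjured samples, and its difference was 0.78 ± 0.42 (limma adjusted p = 0.20). It ran from 341.2 over 424.3 to 1131 at day 31 and from 310.2 over 454.9 to 522.8 at day 35, both overlapping the uninjured range. Junb was at 1420, 853.5 and 1562 at day 10, from 739.3 over 1116 to 3041 at day 31 and from 842 over 999.7 to 1600 at day 35, where it was 0.77 ± 0.46 above uninjured muscle without passing the test (95% interval -0.13 to 1.67). Ikbkb was at 1247, 1724 and 1117 at day 10, from 1254 over 1625 to 2104 at day 31 and from 1560 over 1818 to 2008 at day 35, where its difference was -0.10 ± 0.19. No step between neighbouring days from 7 to 35 was called for any of the 5 genes, with 5.22%, 5.97% and 0% of the panel called at the steps to days 10, 31 and 35; none had an unadjusted p under 0.05. Voom weights called none of them. Array weights called Myd88 (-0.75, limma adjusted p = 0.037) and Ikbkb (0.44, adjusted p = 0.047) between days 7 and 10.

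At day 84 all 5 genes stood below both uninjured muscle and day 35 on the deposited scale, and none of these differences was called after centring. Myd88 ran from 95.17 over 131.6 to 154.5, Nfkb1 from 488.1 over 553.9 to 576.6 and Nfkbia from 1348 over 1715 to 2266. Ikbkb ran from 424.6 over 600.5 to 671.3, and Junb from 172.9 over 257.9 to 477.9. No sample overlapped the uninjured range in any of the 5, and the share of the panel without overlap is not given here. Against uninjured muscle the differences were -1.48 ± 0.36 for Myd88, -1.86 ± 0.26 for Nfkb1, -1.65 ± 0.45 for Nfkbia, -1.80 ± 0.19 for Ikbkb and -1.18 ± 0.46 for Junb, all called by limma as was 80.6% of the panel, with a panel shift of -1.72. Centred on the panel median, they were 0.29, -0.09, 0.12, -0.03 and 0.59 and limma called none (1.49% of the panel), with no unadjusted p under 0.05 on that scale. Voom weights called 5 on the deposited scaling and 0 with total-count scaling. The Junb call on the deposited scale was lost without uninjured replicate 3 (-0.94, limma adjusted p = 0.10). Against day 35 the 5 differences ran from -1.95 to -1.65 and were all called, with 88.8% of the panel, and again none was called after centring (4.48% of the panel).

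Over all 18 groups, limma's F test called 5 of the 5 genes, and 99.3% of the panel. After centring it called 4, with 97.8% of the panel: Myd88, Ikbkb and Junb ranked 21, 53 and 61 in the panel by the statistic, Nfkb1 ranked 131 (limma adjusted p = 0.033) and Nfkbia, the last but one at 133, was not called (adjusted p = 0.24). The centred group means spanned 2.74 for Junb, 2.29 for Myd88, 1.10 for Ikbkb, 0.74 for Nfkbia and 0.47 for Nfkb1. When the 18 groups were put in order of their centred means, neighbours differed by more than the larger of their SDs in 1 of 17 steps for Myd88 and for Ikbkb, and in 0 of 17 for the other 3 genes. On the deposited scale it was 2 for Myd88 and Ikbkb, 1 for Nfkb1 and Nfkbia and 0 for Junb. The order of single neighbouring groups is therefore not resolved for most of the sequence.

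Because a scaling factor cancels between genes of 1 sample, the Myd88 signal was also set against the Ikbkb signal sample by sample, as log2 Myd88 minus log2 Ikbkb; its zero point depends on the probes and only its change between groups was read. It was -2.44 ± 0.15 (SD, n = 3) in uninjured muscle, 0.52 ± 0.89 (n = 3) at day 1 and 0.56 ± 0.52 (n = 8) at day 3. The uninjured samples, at -2.60 to -2.32, lay below all samples of these days, the lowest of which were at -0.51 and -0.40. The value then stood at -0.42 ± 1.07 on day 7, -1.14 ± 0.61 on day 10, and -1.68 ± 0.85, -2.06 ± 0.39 and -2.12 ± 0.51 on days 31, 35 and 84. Unlike the signals of the single genes, it did not step down between days 35 and 84, where the ranges overlapped. These numbers show unequal change of Myd88 and Ikbkb, and not which of them changed.

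**Figure D3:**
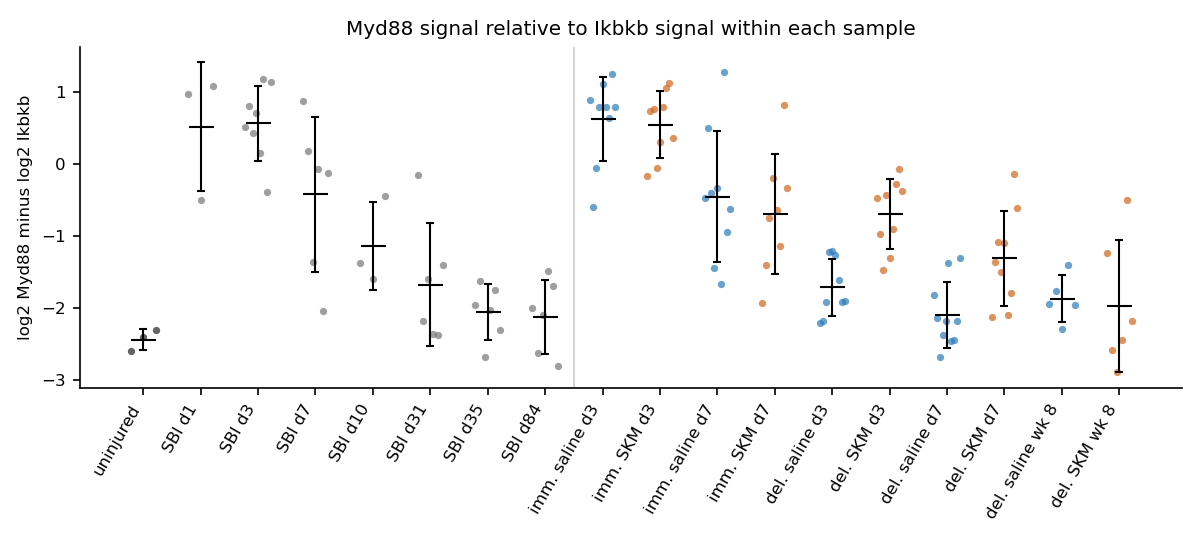
Difference between the log2 signals of Myd88 and Ikbkb within each sample (vertical axis) for the 18 groups (horizontal axis); points are samples, bars the group mean and SD. Uninjured muscle lies at -2.44, days 1 and 3 after injury near 0.5, and delayed SKM at day 3 (-0.70) above delayed saline (-1.72).

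SKM was compared with saline, the vehicle, at each time after injection. After delayed injection Myd88 was higher with SKM. At day 3 its signal ran from 306.6 over 449.5 to 622.1 in 9 saline samples and from 541.9 over 765.2 to 1437 in 9 SKM samples. The ranges overlapped between 541.9 and 622.1. The difference was 0.85 ± 0.24 (limma adjusted p = 0.014), and 0.85 ± 0.20 after centring (adjusted p = 0.0021, 11.2% of the panel); 1 of the 5 genes was called, and 6.72% of the panel. It did not pass without SKM replicate 8, the highest sample (0.75, limma adjusted p = 0.061). At day 7 Myd88 ran from 182.2 over 246.4 to 388.5 in 10 saline samples and from 248.6 over 393.5 to 868.7 in 9 SKM samples, with a wider overlap. The difference was 0.70 ± 0.24 (limma adjusted p = 0.036), again 1 of the 5 genes, with 14.9% of the panel. The day 7 call was not kept after centring (0.44 ± 0.20, limma adjusted p = 0.11, 7.46% of the panel), nor when any of 8 samples was left out: saline replicates 3, 4, 5 and 8 and SKM replicates 3, 5, 8 and 9 (0.56 to 0.70, limma adjusted p = 0.051 to 0.16). Voom weights did not keep it either, on the deposited scaling (0.74, limma adjusted p = 0.051) or on total counts (0.92, adjusted p = 0.078).

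The other 4 genes did not pass between SKM and saline after delayed injection on the deposited scale. Junb ran from 654.3 over 796.9 to 1115 with saline and from 714.1 over 1401 to 2336 with SKM at day 3, and from 286.3 over 435.6 to 1382 and from 418.3 over 797.9 to 1646 at day 7. Its differences were 0.71 ± 0.31 (limma adjusted p = 0.13) and 0.73 ± 0.30 (adjusted p = 0.069), of about the size of those of Myd88 with a larger error. In a fit of the compared groups alone the day 3 difference of Junb passed (limma adjusted p = 0.018), as did the 0.34 of Nfkb1 (adjusted p = 0.049). Both also passed at day 3 with total-count scaling (1.10 and 0.74, limma adjusted p = 0.030 and 0.021) and at both days with array weights. The day 7 difference of Junb passed without saline replicate 10 or SKM replicate 1, 6 or 7 (0.83 to 0.90, limma adjusted p = 0.025 to 0.044). Nfkb1 differed by 0.34 ± 0.17 and 0.39 ± 0.17 (limma adjusted p = 0.16 and 0.078; 0.45 and 0.44 at day 7 without SKM replicate 1 or 7, adjusted p = 0.041 and 0.036), and Nfkbia by 0.39 ± 0.30 and 0.37 ± 0.29 (adjusted p = 0.29 and 0.38). Ikbkb differed by -0.17 ± 0.13 and -0.09 ± 0.12, with 95% intervals of -0.41 to 0.08 and -0.33 to 0.15. Scaled to total counts the sign of the Ikbkb differences turned, to 0.22 and 0.10, and neither passed.

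At week 8 after delayed injection the groups could not be told apart. Myd88 was at 153.1, 147.5, 132.9, 174.8 and 107.8 with saline and ran from 93.15 over 110.7 to 296.5 with SKM, a difference of -0.03 ± 0.31 (95% interval -0.64 to 0.58). None of the 5 genes and 0% of the panel were called, none of the 5 had an unadjusted p under 0.05, and limma with voom weights called none.

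After immediate injection no gene was called at either day, among the 5 or in the panel (0% at both). Myd88 ran from 1350 over 2479 to 3918 with saline and from 1252 over 2192 to 2636 with SKM at day 3, and from 515.5 over 865.6 to 2728 and from 480.8 over 826.8 to 2137 at day 7. Its differences were -0.17 ± 0.24 and -0.16 ± 0.25, with 95% intervals of -0.65 to 0.30 and -0.65 to 0.33. Nfkbia ran from 5027 over 11769 to 62843 with saline and from 5584 over 7580 to 12870 with SKM at day 3. That difference, -0.72 ± 0.30, was the 1 of the 5 with an unadjusted p under 0.05 (limma adjusted p = 0.54); at day 7 there was none, and voom weights called none at either day. With array weights the day 3 difference of Nfkbia was -0.57 and passed (limma adjusted p = 0.040). Junb at day 3 ran from 2582 over 6771 to 21606 with saline and from 2664 over 4875 to 5998 with SKM, a difference of -0.53 ± 0.31. For both genes the saline group held the highest samples and also the higher median. The medians lay closer together only in comparison with the highest samples.

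Whether the SKM difference itself changed with the timing of injection was tested as an interaction. At day 3 the delayed difference minus the immediate one was 1.02 ± 0.34 for Myd88, 1.24 ± 0.43 for Junb, 1.11 ± 0.42 for Nfkbia, 0.50 ± 0.24 for Nfkb1 and -0.07 ± 0.18 for Ikbkb. The limma adjusted p was 0.086 for Myd88 and Junb, 0.11 for Nfkbia and 0.17 for Nfkb1, so 0 of the 5 were called, and 0% of the panel. Of the 5, 4 had an unadjusted p under 0.05, voom weights called 1 and array weights 4. The share of the panel for these 3 counts is not given here. In a fit of the compared groups alone Myd88 and Junb passed (limma adjusted p = 0.012 and 0.037). At day 7 it was 0.86 ± 0.34 for Myd88 and 0.52 ± 0.24 for Nfkb1 (limma adjusted p = 0.078 and 0.14), the 2 of the 5 with an unadjusted p under 0.05, with 1.49% of the panel called. Voom weights called none of the 5 and array weights 2. Myd88 passed there without saline replicate 6 (1.04, limma adjusted p = 0.028), and Myd88 and Nfkb1 without SKM replicate 7 (1.09 and 0.77, adjusted p = 0.024 and 0.021), each left out at both timings at once. Between days 3 and 7 the SKM difference changed by -0.16 ± 0.34 for Myd88 after delayed and by 0.01 ± 0.35 after immediate injection, and for none of the 5 genes was such a change called or an unadjusted p under 0.05 (0% of the panel at both timings; none by voom weights).

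**Figure D4:**
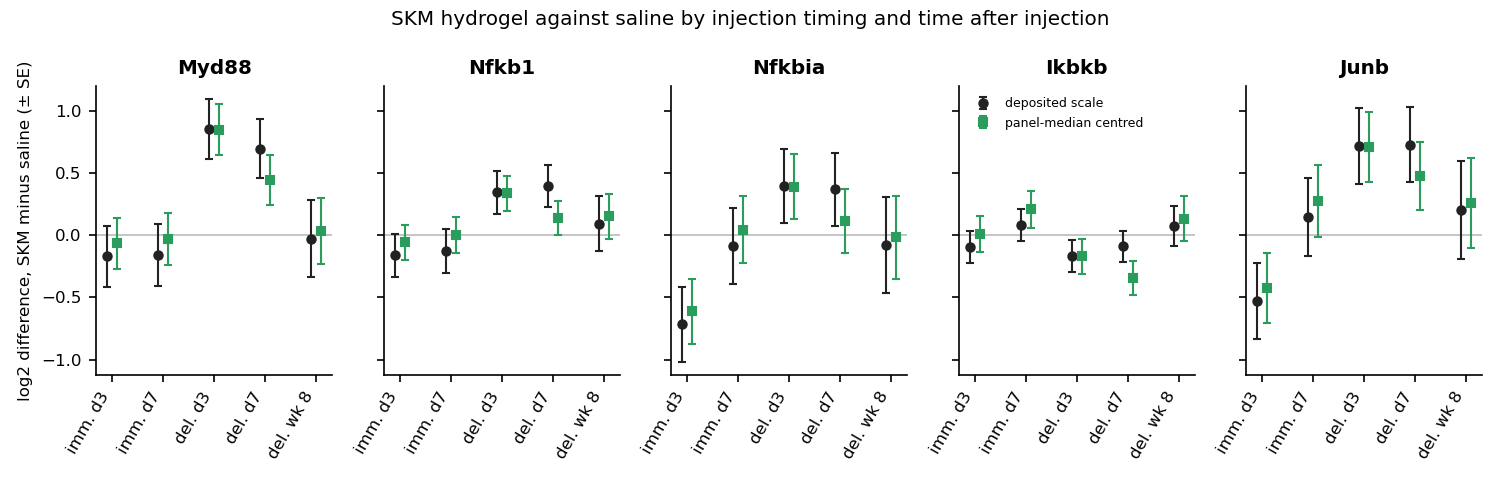
SKM minus saline on the log2 scale (vertical axis) for Myd88, Nfkb1, Nfkbia, Ikbkb and Junb at 5 combinations of injection timing and time after injection (horizontal axis); black circles are the deposited scale, green squares the panel-median centred scale, bars 1 SE. Myd88 stands at 0.85 on both scales 3 days after delayed injection, and Nfkbia and Junb stand lowest 3 days after immediate injection, at -0.72 and -0.53 on the deposited scale.

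Of 3 macrophage markers on the panel, 1 was called higher with SKM than with saline at day 3 after delayed injection and 2 were at day 7. The summed signal of Adgre1, Ccr2 and Arg1, all 3 of which were above 0 in every sample, ran from 775.4 over 1372 to 2286 with saline and from 1832 over 4349 to 12560 with SKM at day 3, and from 363.1 over 564.5 to 1162 and from 573.4 over 2027 to 10290 at day 7. Adgre1 differed by 2.10 ± 0.54 at day 3 and 2.10 ± 0.53 at day 7 (limma adjusted p = 0.0087 and 0.0088), and Ccr2 by 0.87 ± 0.33 and 1.16 ± 0.32 (adjusted p = 0.091 and 0.012). Arg1 differed by 0.78 ± 0.60 and 1.30 ± 0.59 and did not pass (limma adjusted p = 0.30 and 0.091). After injury alone the sum ran from 510 to 1069 in uninjured muscle, from 1926 to 7420 at day 1 and from 2085 to 14580 at day 3, and 2 of the 3 genes (Ccr2 and Arg1) were called higher than in uninjured muscle at day 1 and all 3 at day 3. Neutrophil markers (Cxcr2 and Mmp8) summed to 30.48 to 43.85 in uninjured muscle, 136.7 to 1716 at day 1 and 0.2 to 1398 at day 3 after injury alone. The sum of 0.2 was that of replicate 8, where both markers were at 0 and the total count was the lowest of all samples (366294). The other samples of that group began at 41.59. At day 3 after delayed injection the neutrophil sums were 18.72 to 63.46 with saline and 13.38 to 127.4 with SKM. The muscle fibre share of the summed signal was lower, with medians of 55% at day 1 and 31.1% at day 3 against 68.8% in uninjured muscle, and of 59.8% with SKM against 67.4% with saline 3 days after delayed injection. The part of these markers in the differences of Myd88, Junb and Ikbkb was not tested.

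Saline injection was set against injury alone of the day the study set beside it. At day 3 all 5 genes were higher after immediate saline on the deposited scale, by 0.67 ± 0.25 for Myd88, 0.68 ± 0.18 for Nfkb1, 1.26 ± 0.31 for Nfkbia, 0.61 ± 0.13 for Ikbkb and 0.93 ± 0.32 for Junb, where 44.8% of the panel was called and the panel's median difference was 0.55. None of the 5 was called after centring (0.746% of the panel) or with total-count scaling, and the centred difference of Ikbkb was -0.02. Nfkb1 ran from 3088 over 3987 to 6642 with saline and overlapped the range after injury alone, as did the other 4. In the fit of the compared groups alone Nfkb1 and Ikbkb were called. The Myd88 call was lost without saline replicate 8 (0.57, limma adjusted p = 0.062) or day 3 replicate 8 (0.52, adjusted p = 0.094), and that of Junb without saline replicate 8 (0.71, adjusted p = 0.059). Day 3 replicate 8 of injury alone had the lowest total count of all samples (366294) and the highest factor between count and value (4.28). With SKM in place of saline, and the same injury samples, Nfkb1 differed by 0.52 ± 0.18 and Ikbkb by 0.51 ± 0.13 and were called (37.3% of the panel), with centred differences of -0.0062 and -0.0097. The Nfkb1 call was lost without day 3 replicate 8 (0.42, limma adjusted p = 0.056). Myd88 with SKM (0.49 ± 0.25, limma adjusted p = 0.10) passed without day 3 replicate 6 or 9 (0.62 and 0.66, adjusted p = 0.044 and 0.025), and Nfkbia (0.54 ± 0.31) without replicate 9 (0.80, adjusted p = 0.024).

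At day 7 after delayed saline, set against day 35 of injury alone, 4 of the 5 genes were lower on the deposited scale, where 54.5% of the panel was called and the panel's median difference was -0.70. The differences were -0.77 ± 0.27 for Myd88, -0.74 ± 0.19 for Nfkb1, -0.73 ± 0.14 for Ikbkb and -1.12 ± 0.33 for Junb, and -0.67 ± 0.33 for Nfkbia (limma adjusted p = 0.071). None was called after centring (1.49% of the panel), when the 5 ran from -0.44 (Junb) to 0.005 (Nfkbia). The Nfkbia difference passed without day 35 replicate 6 (-0.79, limma adjusted p = 0.046) or saline replicate 8 (-0.71, adjusted p = 0.050). It also passed in the fit of the compared groups alone (limma adjusted p = 0.0047) and with array weights (-0.66, adjusted p = 0.0029). With voom weights on the deposited scaling it passed narrowly (limma adjusted p = 0.04999), while total-count scaling called 0 of the 5. With SKM against the same samples Ikbkb alone was called (-0.82 ± 0.14, 39.6% of the panel; centred -0.39, limma adjusted p = 0.097), and Nfkb1 was called too without SKM replicate 8 (-0.46, adjusted p = 0.045). At day 3 after delayed injection, against day 31, Myd88 with SKM differed by 0.71 ± 0.27 (limma adjusted p = 0.062) and by 0.79 ± 0.23 after centring (adjusted p = 0.015, 9.7% of the panel), while none of the 5 and 12.7% of the panel were called on the deposited scale (1 of the 5 with an unadjusted p under 0.05, none by voom weights, and Myd88 and Ikbkb by array weights); with saline it differed by -0.14 ± 0.27. Without day 31 replicate 1 the deposited Myd88 difference with SKM was 0.94 (limma adjusted p = 0.0074), and without SKM replicate 3 or 5 it was 0.78 and 0.77 (adjusted p = 0.040 and 0.046). In the remaining comparisons with injury alone (immediate saline and SKM at day 7, delayed saline at day 3, both at week 8) none of the 5 genes was called, where 2.99%, 0%, 2.24%, 0% and 0% of the panel were; unadjusted p-values under 0.05 numbered 1, 1, 1, 0 and 0, and voom weights called none. Array weights called Ikbkb for immediate SKM at day 7 (0.44, limma adjusted p = 0.035) and Nfkbia for delayed saline at day 3 (-0.60, adjusted p = 0.025). Ikbkb passed at day 7 after immediate saline and SKM without day 7 replicate 5 of injury alone (0.45 and 0.53, limma adjusted p = 0.027 and 0.013).

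Against uninjured muscle the immediate injection groups kept the pattern of the early days after injury. Myd88 was 2.69 ± 0.34 higher with saline and 2.51 ± 0.34 higher with SKM at day 3, and 1.43 ± 0.34 and 1.27 ± 0.35 higher at day 7. Junb was 3.31 ± 0.43, 2.78 ± 0.43, 1.51 ± 0.43 and 1.66 ± 0.44 higher. Both were called in all 4 groups on both scales. Ikbkb was 0.38 to 0.55 lower on the deposited scale and 0.61 to 1.10 lower after centring, called in all 4 on both, but at day 3 it was higher by 0.14 and 0.10 with total-count scaling. In these groups 79.9%, 75.4%, 60.4% and 56% of the panel were called on the deposited scale and 77.6%, 73.9%, 61.9% and 57.5% after centring. Without uninjured replicate 3 none of the 4 Ikbkb differences passed on the deposited scale (-0.40 to -0.23, limma adjusted p = 0.088 to 0.31). Without uninjured replicate 1 only that of saline at day 7 passed, and the saline difference at day 3 was also lost without saline replicate 1, 4, 5, 7 or 9 (-0.37 to -0.34, adjusted p = 0.057 to 0.078). The Myd88 difference of SKM at day 7 was 1.06 without uninjured replicate 2 (limma adjusted p = 0.052). Nfkb1 was 1.07 ± 0.24 higher with saline and 0.91 ± 0.24 higher with SKM at day 3, and Nfkbia 1.18 ± 0.42 higher with saline, none of them called after centring (0.34, 0.28 and 0.45). All 3 were called with total-count scaling (1.65, 1.55 and 1.81).

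After delayed injection Myd88 and Junb were above uninjured muscle with SKM at day 3, by 1.20 ± 0.34 (limma adjusted p = 0.0053) and 1.15 ± 0.43 (adjusted p = 0.029), and Ikbkb was below it (-0.54 ± 0.18, adjusted p = 0.013), although with total-count scaling it was at 0.08; 36.6% of the panel was called, and 26.9% after centring, when Myd88 and Junb were called. Without uninjured replicate 2 neither Myd88 (0.99) nor Junb (1.06) passed (limma adjusted p = 0.082 and 0.14). Junb did not pass without uninjured replicate 1 (1.00, adjusted p = 0.13) or SKM replicate 8 (1.06, adjusted p = 0.051). Ikbkb did not pass without uninjured replicate 1 or 3 (-0.47 and -0.40, adjusted p = 0.081 and 0.13). With saline at day 3 none of the 5 genes and 0% of the panel were called; 1 of the 5, Ikbkb, had an unadjusted p under 0.05; voom weights called none and array weights called it (-0.52, limma adjusted p = 0.0026). At day 7 the calls were Nfkb1 and Ikbkb with saline (-0.75 and -0.83, 43.3% of the panel) and Ikbkb with SKM (-0.92, 33.6% of the panel), none of them after centring. At week 8 all 5 genes were below uninjured muscle in both groups on the deposited scale (82.1% and 83.6% of the panel) and none was called after centring (0.746% and 2.24%). The week 8 Junb calls were lost without uninjured replicate 3 (-0.91 with saline and -0.71 with SKM, limma adjusted p = 0.12 and 0.21). That with SKM was also lost without uninjured replicate 1 or 2 or SKM replicate 2, 3, 4 or 6 (-1.10 to -0.87, adjusted p = 0.053 to 0.083).

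The pathway's other genes on the panel are few. Of a list of 58 further receptors, adaptors, kinases and NF-kappaB subunits, 4 were measured: the cytokine Il33, the tumour necrosis factor receptor Tnfrsf1a, and the kinases Akt1 and Akt2. Tnfrsf1a was 1.03 ± 0.29 higher at day 1 and 1.10 ± 0.24 higher at day 3, Il33 was 0.87 ± 0.23 higher at day 3, and Akt2 was lower at both days (-1.40 ± 0.25 and -1.25 ± 0.21). Akt1 (-0.29 ± 0.15 and -0.25 ± 0.12) was not called at either day on the deposited scale. The list thus had 1 gene higher and 1 lower at day 1, and 2 higher and 1 lower at day 3, with medians of -0.34 and 0.31 against -0.66 and 0.02 for the panel. Of the panel, 21.6% was called higher and 43.3% lower at day 1, and 38.8% and 35.1% at day 3. At day 7 Akt1 (-0.46 ± 0.13) and Akt2 (-0.82 ± 0.22) were lower, and between SKM and saline none of the 4 was called at any time.

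Of a list of 30 genes known as NF-kappaB targets, 12 were measured. The summed signal of all 12 ran only from 503.9 to 736 in uninjured muscle, where 1 of them was at 0 in at least 1 sample. Large log2 differences of these genes can thus start from low signals. At day 1, 8 of the 12 were higher and 0 lower, with a median of 3.06 against -0.66 for the panel, of which 21.6% was called higher. Chemokines and cytokines led them: Ccl2, which draws monocytes, was 6.57 ± 0.95 higher, Il1b 6.32 ± 1.65, Cxcl1, which draws neutrophils, 4.57 ± 1.56, Ccl3 4.03 ± 1.13, Tnf 3.18 ± 1.19, Il6 2.95 ± 0.96 and Il10 1.02 ± 0.45. Nos2, the inducible nitric oxide synthase, was 5.09 ± 1.76 higher. Ccl4 (2.01 ± 1.24), Mmp9 (0.98 ± 0.56), Il2 (0.89 ± 1.04) and Il12b (-1.39 ± 1.26) did not pass. At day 3, 7 of the 12 were higher, with a median of 2.08 against 0.02 for the panel, of which 38.8% was called higher; they were Il1b (5.10 ± 1.36), Ccl2 (4.21 ± 0.78), Il6 (3.85 ± 0.80), Nos2 (3.81 ± 1.46), Cxcl1 (3.26 ± 1.29), Ccl3 (2.33 ± 0.93) and the matrix protease Mmp9 (1.82 ± 0.46). Ccl4 (1.83 ± 1.02), Tnf (1.28 ± 0.99), Il2 (1.22 ± 0.87), Il12b (1.13 ± 1.04) and Il10 (-0.06 ± 0.38) did not pass. At day 7, 4 of the 12 were higher (Il1b, Ccl2, Ccl3 and Mmp9), where 30.6% of the panel was called higher and 26.9% lower, and from day 10 to day 35 none was. At day 84, 3 of the 12 were lower on the deposited scale, where 80.6% of the panel was called, and none after centring (1.49% of the panel). Between SKM and saline after delayed injection, Il1b was higher at day 3 (2.88 ± 0.95, limma adjusted p = 0.045), and Il1b, Tnf and Ccl2 at day 7 (2.53 ± 0.93, 2.00 ± 0.67 and 1.63 ± 0.53; adjusted p = 0.049, 0.036 and 0.032). The medians of the 12 were 1.13 and 1.06, against 0.16 and 0.24 for the panel, of which 6.72% and 14.9% were called, all higher, and after centring Il1b remained called at day 3 and none of the 12 at day 7. The summed signal of the 12 ran from 603 to 1552 with delayed saline and from 821.9 to 6237 with delayed SKM at day 3. At day 7 it ran from 220.3 to 548.3 and from 246.6 to 3108. Of the 12, 0 and 3 were at 0 in at least 1 sample at day 3, and 5 and 2 at day 7. After immediate injection none of the 12 was called.

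**Figure D5:**
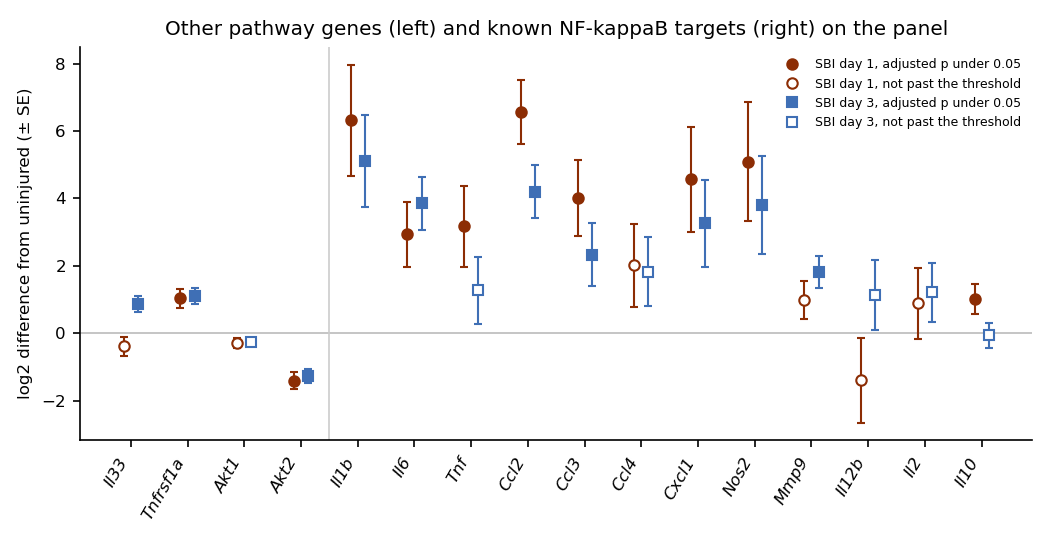
Difference from uninjured muscle on the log2 scale (vertical axis) at days 1 and 3 after injury alone for the panel's 4 other pathway genes (left of the line) and 12 known NF-kappaB targets (right), named on the horizontal axis; bars are 1 SE and filled symbols passed the limma test. Ccl2 and Il1b stand highest at day 1, at 6.57 and 6.32, and Akt2 stands below 0 at both days.

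Within groups, the highest values of several of these genes tended to fall in the same sample. In 9 of the 18 groups a single sample was highest for at least 4 of the 5 genes, and in 8 of these 9 it also had the highest macrophage marker sum of its group. Deposited values carry the scaling of the sample, and the share of the panel that was highest in the same sample is not given here. Replicate 1 of day 31 also had the highest panel median of its group (10.58 on the log2 scale). So did replicate 8 of immediate saline at day 3 (11.20) and replicate 7 of immediate saline at day 7 (10.74). Replicate 7 of immediate SKM at day 7 did not (10.43, against 10.48 in replicate 8). Replicate 8 of immediate saline at day 3 had the highest Nfkbia and Junb signals of its group, 62843 and 21606, and a macrophage sum of 29620 against 4489 to 21720 in the other samples. Replicate 1 of day 31 was highest for all but Ikbkb, with a macrophage sum of 9650 against 628.8 to 1455. Replicate 7 of immediate saline at day 7 and replicate 7 of immediate SKM at day 7 were likewise highest for all but Ikbkb, with macrophage sums of 16700 and 18600 and the lowest muscle fibre sums of their groups (178700 and 147200). After group means were removed from the centred values, Pearson's r over 124 samples was 0.80 between Myd88 and Nfkb1, 0.72 between Myd88 and Junb, 0.65 between Nfkb1 and Nfkbia and -0.56 between Myd88 and Ikbkb, as a description of samples that share panel, centring and tissue make-up.

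Over the 18 centred group means, the panel genes whose pattern was most like that of Myd88 were Stat6 (Pearson's r = 0.99), Irf5 (0.98) and Timp1 (0.98), and the least like was Tmod1 (-0.95). Junb was most like Stat6 (0.98), Myd88 (0.98) and Timp1 (0.97), and least like Tmod1 (-0.94). Ikbkb was most like Eif4b (0.99), Eif2b5 (0.98) and Eif4g1 (0.98), and least like Tnc (-0.96). Nfkb1 was most like Stat6 (0.91), Rps6ka1 (0.87) and Myd88 (0.87), and least like Actn2 (-0.82). For Nfkbia no gene came as close: Mmp8 reached 0.53, Il10 0.45 and Eif4ebp1 0.44, and Musk was the least like at -0.57. These values describe 18 points that share the tissue and the centring.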

How the data were processed

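RNA (50 to 100 ng a sample) from 127 rat muscle samples was counted by hybridisation to the probes of a custom panel. The deposited values are normalised signal on a linear scale; how the authors normalised them is not given in the sources used here. All 16829 values above the floor of 0.1 were whole counts times 1 factor per sample, within 0.05 count. Probes carry no gene name in the value table, so each was named by matching the authors' deposited log2 fold changes, in alphabetical order, to ratios of group means (median difference 0.0049). The day 31 and 35 values for Ikbkb and Nfkbia in the authors' deposited table repeat those of Has1 and Has2 and differ from the ratios of group means by 0.1404 to 0.6938. Of the values used for naming, 2 of 4 for Ikbkb and 4 of 6 for Nfkbia lay within 0.05, so these names are less sure. The median difference of Ikbkb was 0.2325, and other probes came nearer by this median (0.1704 for the second nearest). This median includes the repeated day 31 and 35 values. Naming all probes at once by values alone, without the alphabetical order, gave the same name for 134 of 134. The authors' day 3 values of immediate saline against injury alone, not used for naming, differ by -0.1829 for Nfkbia and -0.1932 for Junb. For the 5 genes, the authors' deposited values for days 3 and 7 after injury alone differ from ratios over all samples by up to 0.5222 in size (Nfkbia, day 3) and were not used for naming; they lie within 0.05 of ratios over replicates 1 to 6 alone, a sample set found after seeing the data.

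limma 3.58.1 in R 4.3.3 was fitted to log2(value + 1) over all 18 groups, with 42 contrasts and Benjamini-Hochberg adjustment over all measured genes within each contrast, and was tested on simulated data. Intervals are 1.96 SE. Other scalings, weights and sample sets were tried. Python 3.11.15 and scipy 1.17.1 made the summaries. All 5 genes were named in every comparison, with the 3 most like and 1 least like panel genes, every measured list gene at days 1 and 3, and elsewhere those past the threshold. The rule for the 5 genes uses names alone, but genes and lists were chosen with earlier results of these data known. Total counts ran from 366294 to 1824478 per sample.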

Additional observations from a re-analysis of the deposited data

Results flagged for a closer look

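Samples that stood apart from their group by Dixon's test at the 95% level were found in 7 of 75 combinations of gene and group. Chance alone gives about 1 in 20 for independent combinations. These combinations share samples and are not independent, so the count shows no excess over chance. Replicate 1 of day 31 after injury alone was highest for Nfkb1 (11.77 on the log2 scale, others 10.84 to 11.04), Nfkbia (13.57, others 12.57 to 12.88) and Junb (11.57, others 9.53 to 10.19). For Nfkb1, replicate 7 stood highest at day 7 after immediate saline (12.89, others 11.03 to 11.88) and at day 7 after immediate SKM (12.73, others 10.95 to 11.36). Nfkb1 in replicate 4 of week 8 saline was at 9.48 (others 9.11 to 9.19), and in replicate 4 of immediate SKM at day 3 it was lowest (11.54, others 11.78 to 12.03). After centring on the panel median, 2 combinations stood apart, of which replicate 7 of immediate SKM at day 7 was 1.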

How the results depend on the processing

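Of 210 differences of the 5 genes, 169 kept their side of the threshold, and their direction where called, after panel-median centring, 160 with voom weights on total counts, 204 with voom weights on the deposited scaling, 192 in fits of the compared groups alone, 176 with array weights, 209 with a pseudocount of 10, 210 with a filter on mean value, and 208 with identical samples kept. Among these, in the same order, uncalled differences that turned sign numbered 33, 34, 2, 0, 22, 0, 0 and 5. The cause of the changes was not tested. With array weights 32 of the 210 differences gained a call and 2 lost it. The share of the panel called is given here only for the deposited and centred scales. Counts of calls of the 5 genes under the other settings therefore stand without a panel share. Counts of the 5 genes with an unadjusted p under 0.05 likewise stand without one. The voom settings and the fit without the week 8 and day 84 groups were chosen after seeing the data. Calls against uninjured muscle over the injury days numbered 14, and 9 centred. Calls between days numbered 7, 2 centred, and 1 (of 2) without the week 8 and day 84 groups. Calls of SKM against saline numbered 2, with 1 centred, 4 in the compared groups, 7 with array weights, 3 with voom weights on total counts, 4 with the replicate block and 1 with voom weights on the deposited scaling. Saline against injury alone gave 9, and 0 centred and on total counts; SKM against injury alone gave 3, with 1 centred, 12 with array weights and 0 on total counts. Interactions gave 0, with 2 in the compared groups, 6 with array weights and 1 with voom weights on the deposited scaling. Injected against uninjured gave 31, and 14 centred and on total counts. Leaving out 1 replicate gave 13 to 14, 5 to 7, 0 to 4, 8 to 10, 2 to 6, 0 to 2 and 24 to 32 for these in order, and 5 to 5 for the F test.

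Among differences called on the deposited scale or under the alternative, directions turned as follows. Against uninjured muscle, day 84 was at 0.29 (centred) and 0.0729 (total counts) for Myd88, 0.59 and 0.39 for Junb, and 0.12 centred for Nfkbia. Week 8 saline was at 0.41 and 0.27 for Myd88, 0.45 and 0.34 for Nfkbia, and 0.57 and 0.45 for Junb; week 8 SKM was at 0.44 and 0.28 for Myd88, 0.13 and 0.0087 for Nfkb1, 0.43 and 0.32 for Nfkbia, and 0.83 and 0.70 for Junb. On total counts Ikbkb was at 0.40 at day 1, 0.0243 at day 3, 0.14 and 0.10 at day 3 after immediate saline and SKM, 0.0796 at day 3 after delayed SKM, and -0.36 between days 7 and 3. Centred, day 84 against day 35 was at 0.0767 for Nfkbia and 0.0293 for Ikbkb, immediate saline at day 3 against injury alone at -0.0166 for Ikbkb, and immediate SKM at -0.0062 for Nfkb1 and -0.0097 for Ikbkb.

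Whether replicate numbers pair the samples was not settled. In 0 of 28 comparisons did every same-numbered pair correlate above 0.1 (60 of 151 pairs did), a strict rule that cannot show pairing to be absent. The samples were treated as unpaired, and the replicate block is given only as the count above. The edgeR and DESeq2 alternatives were not run.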
